A study of Mus musculus with 13 samples.

Results

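Injured mouse livers with and without pretreatment were compared by RNA sequencing: livers injured with D-galactosamine and lipopolysaccharide (GalN/LPS, n = 3 libraries), and livers injured in the same way after a dose of dmPGE2 (the pretreated group, n = 4). The 7 libraries are all those of these groups among the 13 of the series, and the comparison was made across every gene that could be tested. All mice were wild-type C57 BL6 animals aged 8 weeks. Injury was set by an intraperitoneal injection of 500 mg/kg D-galactosamine together with 5 µg/kg lipopolysaccharide, and the pretreated mice received dmPGE2 at 300 µg/kg by the same route 1 h earlier. Livers were collected 6 h after injection. Levels in saline livers (n = 3) are given as a reference, and dmPGE2 alone (n = 3) entered the fit. The labels do not say that each library came from its own animal, so the p-values reflect no more than the spread among these libraries, which may be technical.

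Galactosamine uses up the uridine nucleotides of hepatocytes and thereby blocks their RNA synthesis, which makes them sensitive to tumor necrosis factor. Lipopolysaccharide, a wall component of Gram-negative bacteria, is sensed by Toll-like receptor 4 and its co-receptor CD14 on Kupffer cells, other macrophages and endothelium, and the signal reaches the factor NF-kB, which drives cytokine, chemokine and adhesion genes. dmPGE2 (16,16-dimethyl prostaglandin E2) is a stable analogue of prostaglandin E2. That lipid acts through the EP receptors, of which EP2 and EP4 raise cyclic AMP, and in macrophages this is known to restrain the release of tumor necrosis factor.

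The pretreated livers held much less of the mRNAs of cytokines, chemokines, adhesion molecules and early response factors than the livers given GalN/LPS alone, and more of many hepatocyte mRNAs. Nfkbia, the NF-kB inhibitor that NF-kB itself induces, stood at 153, 143 and 167 CPM in the GalN/LPS libraries and 32.9, 33.7, 32.4 and 27.8 CPM in the pretreated libraries. The groups did not overlap, and the mRNA fell (log2 fold change -2.28 ± 0.13 (SE), adjusted p = 1.04e-07). On the other side, Trp53inp1, a p53-inducible stress protein, stood at 45.7, 42.4 and 42.8 CPM in the GalN/LPS libraries and 170.1, 158, 418 and 336 CPM in the pretreated libraries. It was higher in every pretreated library, at 158 CPM or more, and rose (2.63 ± 0.30, adjusted p = 1.48e-05). Levels are given in CPM, a gene's counts relative to the TMM-scaled size of the library, and adjusted p-values are from edgeR's quasi-likelihood test with Benjamini-Hochberg adjustment over all genes. The value after ± is the SE of a log2 fold change or the SD of a mean level.

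How many genes counted as higher rested on the scaling. TMM sets the libraries to a common scale on which the typical gene does not change, while library totals divide by all counts, so that abundant mRNAs with a larger share push the others down. Of 14280 genes tested, 3481 (24.4%) were higher and 4299 (30.1%) lower in pretreated livers with TMM. With library totals 616 (4.31%) were higher and 6804 (47.6%) lower. Each gene that was higher with totals was also higher with TMM, and each gene that was lower with TMM was also lower with totals, so 616 genes (4.31%) were higher and 4299 (30.1%) lower under both. Between these sets, 2865 genes were higher with TMM alone, 2505 were lower with totals alone, and 0 were called in opposite directions. The higher share of calls was thus 44.7% with TMM and 8.30% with totals, and the median log2 fold change of all genes -0.10 and -0.61. With totals taken without the 100 most abundant genes, 1025 genes were higher and 6346 lower. Of the genes lower under both, 2603 were at least 2-fold lower with TMM and 329 at least 4-fold. Of those higher under both, 92 were at least 2-fold higher with totals and 22 at least 4-fold. Without GalN/LPS library 3 the count higher under both was 318.

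**Figure D1:**
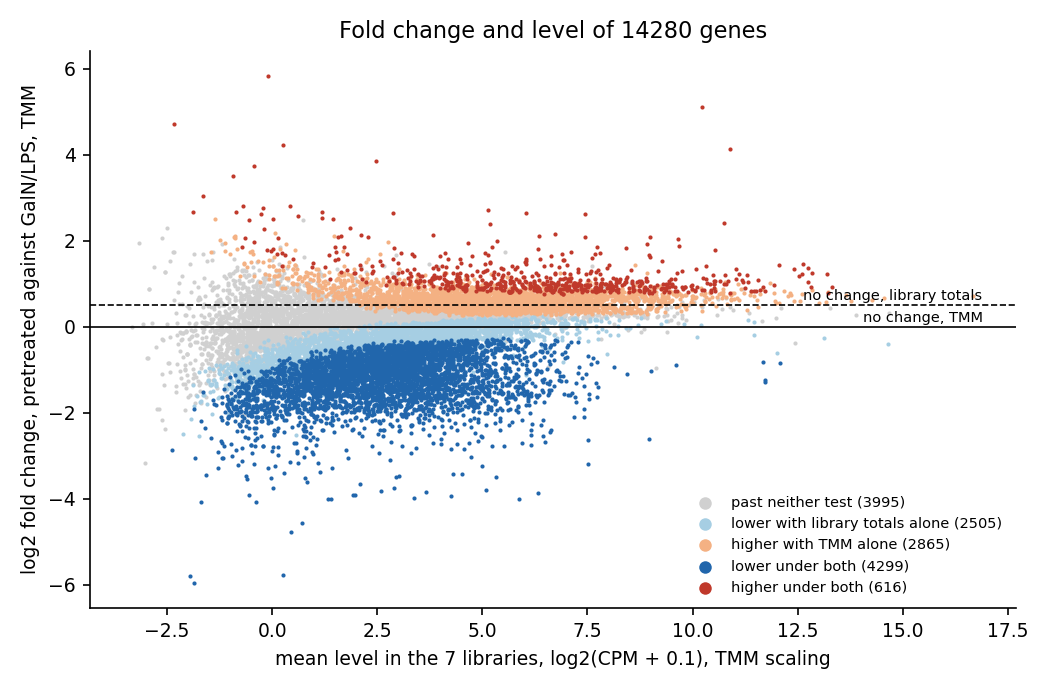
Log2 fold change of each gene tested (y axis, TMM) against its mean level in the 7 libraries (x axis, log2(CPM + 0.1)), colored by the calls under the 2 scalings. The solid line is no change with TMM and the dashed line no change with library totals: the 4299 genes lower under both lie below both lines, and the 2865 higher with TMM alone lie above the solid line.

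Total counts lay between 16575171 and 17709049 in GalN/LPS and 16910816 and 17649675 in pretreated libraries, so depth did not separate the groups. The TMM factors did: 1.14, 0.904 and 1.10 in GalN/LPS against 0.717, 0.830, 0.709 and 0.683 in pretreated libraries. Mitochondrial mRNAs took 6.40, 6.03 and 5.97% of the counts against 2.78, 2.34, 3.31 and 4.08%, and ribosomal RNA genes 1.23 ± 0.197% against 0.466 ± 0.0696% (SD). Hemoglobin mRNAs took 0.138 ± 0.0619% and 0.0478 ± 0.0133%. The 100 most abundant genes took 48.4 ± 2.11% and 51.7 ± 2.04%, and their ranges overlapped. Genes with at least 1 count numbered 19820 to 20389 in GalN/LPS and 17781 to 18701 in pretreated libraries. For the TMM factor, mitochondrial, ribosomal and hemoglobin shares and detected genes, whose groups did not overlap, the exact two-sided permutation test gave p = 0.0571, the smallest that 3 against 4 libraries allow, and 0.114 after Benjamini-Hochberg adjustment over 10 such measures. Their part in the results was not tested. The first principal component of the 7 libraries held 62.6% of the variance and separated the groups, and on the second (13.2%) pretreated library 1 stood apart at -34.7, with the other libraries from -13.3 to 17.7. The root mean square log2 difference between 2 libraries was 0.496 to 0.613 within GalN/LPS, 0.616 to 0.723 within pretreated and 0.802 to 1.16 between the groups.

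The mRNAs of the prostaglandin E2 pathway itself were lower in part. Of 16 measured members of 18 (enzymes, transporters and receptors), 8 were lower under both scalings and 4 were higher with TMM alone (median -0.89). Among all genes 30.1% were lower under both and 24.4% higher with TMM. The inducible cyclooxygenase Ptgs2 stood at 13.2, 4.48 and 6.25 CPM in the GalN/LPS libraries and 0.635, 0.82, 0 and 0.592 CPM in the pretreated libraries, and fell by 3.91 ± 0.55 on the log2 scale (adjusted p = 6.90e-05). Pla2g4a, the phospholipase that frees arachidonic acid, fell as well (-1.77 ± 0.37), as did the synthase Ptges3 (-0.81 ± 0.17). The prostaglandin reductase Ptgr2 was higher with TMM (0.75 ± 0.14, adjusted p = 0.000489) but not with totals (0.26, adjusted p = 0.133). Hpgd, which inactivates prostaglandin E2, passed neither test, at 57.8, 113 and 56.3 CPM against 88, 79.2, 119.5 and 122 CPM (0.43 ± 0.23 with TMM, -0.05 with totals). With TMM the missed call rested on GalN/LPS library 2 and on the expression filter. Without that library the value was 0.85 (adjusted p = 0.00181), and with no filter 0.40 (adjusted p = 0.0395).

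Of the receptors, Ptger1 and Ptger3 (EP1 and EP3) were too low to be tested. Ptger2 (EP2) stood at 2.18, 1.64 and 2.41 CPM in the GalN/LPS libraries and 0.635, 1.16, 0.667 and 1.1 CPM in the pretreated libraries and fell (-1.21 ± 0.35, adjusted p = 0.00839). Its saline level was 0.654 ± 0.143 CPM, so the pretreated mean lay between saline and GalN/LPS. Ptger4 (EP4) missed the threshold with TMM (-1.11 ± 0.46, adjusted p = 0.0529) and passed it with totals (-1.63, adjusted p = 0.0108). Without pretreated library 4 it passed with TMM as well (-1.31, adjusted p = 0.0471), but not without any other single library or with a replicate block in the fit. It also passed with the 7 libraries alone (-1.13, adjusted p = 0.00712), DESeq2 (-1.18, adjusted p = 0.0137) and limma on log2(FPKM + 0.1) (-0.92, adjusted p = 0.00638). It overlaps the more abundant gene Ttc33, so some of its reads may belong to that gene.

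Genes known to be induced by cyclic AMP were mostly lower at this time, 7 h after dmPGE2 by the stated schedule. Of 15 measured, 12 were lower under both scalings and 1 was higher with TMM alone (median -1.51). Akap12, a scaffold of protein kinase A, stood at 135, 55.3 and 189.8 CPM in the GalN/LPS libraries and 2.62, 19.6, 4.5 and 4.06 CPM in the pretreated libraries (ENSMUSG00000038587, chromosome 10, 4266380 to 4359470 in GRCm38). Every pretreated library lay below every GalN/LPS library, and library 2 was the highest of the 4 (-4.01 ± 0.52, adjusted p = 3.81e-05). The phosphodiesterase Pde4b, which breaks down cyclic AMP, fell from 26.5 ± 6.32 to 5.28 ± 0.362 CPM (-2.33 ± 0.22), close to the saline mean of 6.66 ± 1.66 CPM. The orphan receptors Nr4a1 (-2.47 ± 0.25) and Nr4a3 (-4.0 ± 0.47) and the kinase Sik1 (-1.92 ± 0.23) fell too. The cyclic AMP response element (TGACGTCA, searched on both strands from 250 bases before to 50 after the start in RefSeq promoters of GRCm38.p6) was in 0 of the 17 promoters of the 11 list genes found there, in 1.79% of all 32851 promoters and in 2.83% of those of tested genes. Only this full motif was searched, and 17 promoters are too few to tell 0 from these shares.

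Cytokine mRNAs were lower as a group. Of 19 cytokine ligands measured, 17 were lower under both scalings and 0 higher under either (median -1.77 with TMM, -2.30 with totals). Tnf, the cytokine to which galactosamine sensitizes hepatocytes, stood at 23.6, 16.1 and 19.5 CPM in the GalN/LPS libraries and 6.91, 2.87, 7.09 and 5.08 CPM in the pretreated libraries, and fell (-1.85 ± 0.28, adjusted p = 0.000106). Tnf remained above the saline level of 0.174 ± 0.0707 CPM in every pretreated library. Il1b, which encodes interleukin 1 beta, stood at 189, 125 and 179.7 CPM against 35.6, 20.02, 27.9 and 30.7 CPM and fell (-2.53 ± 0.20, adjusted p = 1.08e-06). Il6, for interleukin 6, stood at 3.56, 1.95 and 2.87 CPM against 0.556, 0.0683, 0.334 and 0.508 CPM (-2.95 ± 0.51, adjusted p = 0.000655). The colony-stimulating factor Csf1 fell (-2.4 ± 0.23), and so did Il1rn, the natural antagonist of the interleukin 1 receptor (-1.75 ± 0.31). Leukocyte markers moved with these mRNAs: the summed level of 12 neutrophil markers was 776 to 1055 CPM in GalN/LPS and 304 to 463 CPM in pretreated livers, and that of 12 Kupffer cell and macrophage markers 825 to 1296 CPM in GalN/LPS and 389 to 635 CPM in pretreated livers. Their part in the result was not tested.

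Chemokines, which draw leukocytes into tissue, fell in both families. Of 12 CXC chemokines 10 were lower under both scalings (median -2.26), and of 13 CC chemokines, 10 (median -1.87), with 0 higher in either. Ccl2, which attracts monocytes, stood at 216, 94.3 and 199 CPM in the GalN/LPS libraries and 9.76, 15.2, 6.51 and 15.1 CPM in the pretreated libraries, with the highest pretreated library far below the lowest GalN/LPS library (-3.86 ± 0.31, adjusted p = 1.08e-06). Cxcl10, a ligand of the T cell receptor CXCR3, stood at 413, 289 and 347 CPM against 58.9, 55, 59.9 and 52.1 CPM. Its pretreated libraries were tightly grouped (-2.63 ± 0.19, adjusted p = 6.54e-07). The related Cxcl9 (-3.19 ± 0.28) and Cxcl11 (-3.11 ± 0.23) fell by more, and Ccl7 (-3.42 ± 0.28), Ccl3 (-2.6 ± 0.30) and Ccl4 (-2.26 ± 0.21) fell too. Chemokine genes of one family resemble each other in sequence, so some reads may be split between them.

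**Figure D2:**
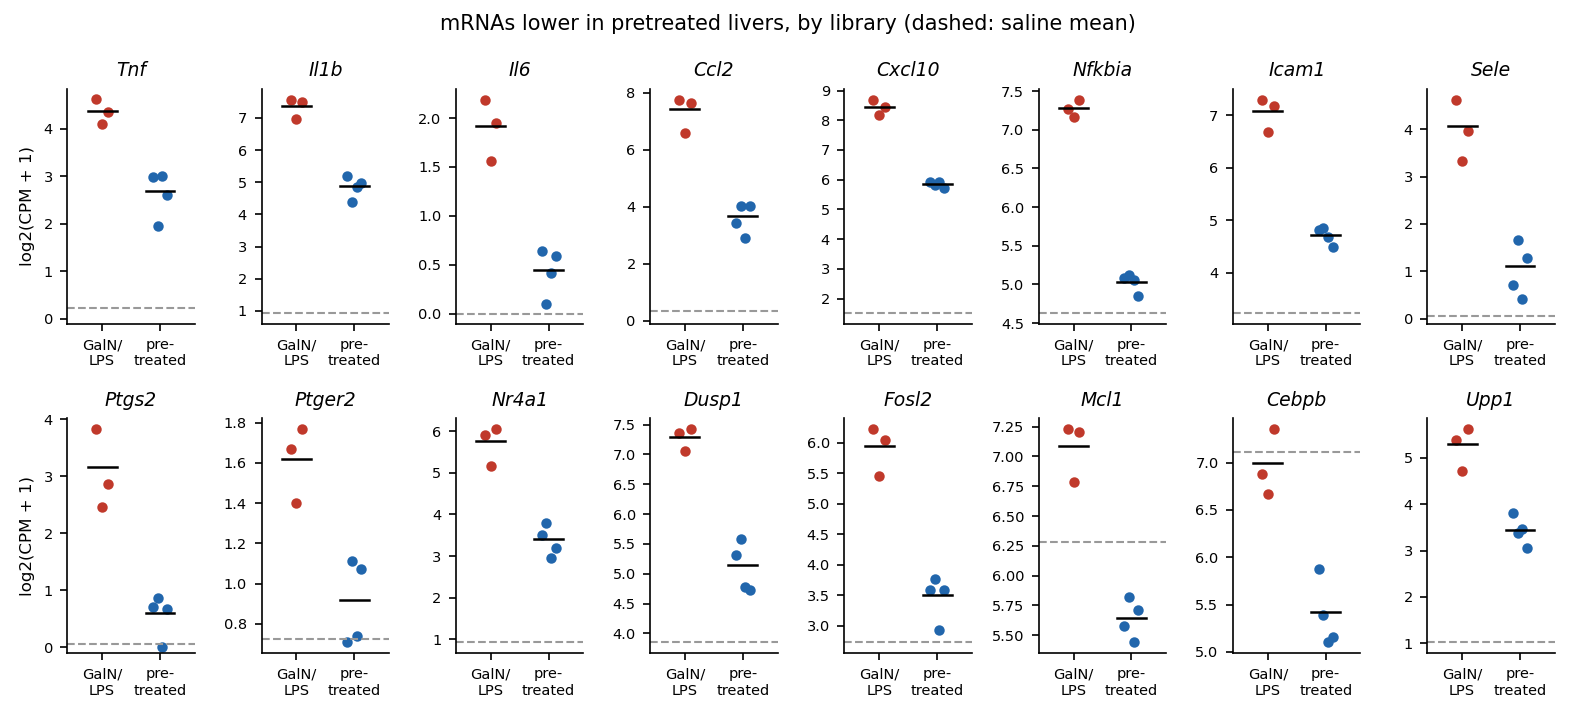
Level of 16 mRNAs in each library (y axis, log2(CPM + 1), TMM; a panel per gene with its own axis) in GalN/LPS (red, 3 libraries) and pretreated livers (blue, 4), with group means as bars and the saline mean as a dashed line. The groups do not overlap in any panel, and for Mcl1 and Cebpb all pretreated libraries lie below the saline mean.

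The receiving side of these signals was lower in most but not all members. Of 24 cytokine receptors 17 were lower under both scalings and 3 higher with TMM alone, among the lower ones the tumor necrosis factor receptor Tnfrsf1b (-1.6 ± 0.17), the shared cytokine chains Csf2rb (-1.51 ± 0.17) and Il2rg (-1.65 ± 0.19), and the decoy receptor Il1r2 (-1.66 ± 0.20). Of 18 genes of lipopolysaccharide sensing, 11 were lower under both and 4 higher with TMM alone, beside 30.1% lower under both and 24.4% higher with TMM among all genes. Cd14 stood at 149, 94 and 142 CPM in the GalN/LPS libraries and 43.2, 43.4, 45 and 32.7 CPM in the pretreated libraries and fell (-1.64 ± 0.18), as did Tlr2 (-2.18 ± 0.20) and the adaptor kinase Irak2 (-2.03 ± 0.18). Lbp, the plasma protein made by hepatocytes that carries lipopolysaccharide to CD14, was higher with TMM (1.13 ± 0.28, adjusted p = 0.00333) and missed the threshold with totals (0.63, adjusted p = 0.0552). The kinase Irak1 was also higher with TMM alone (0.64 ± 0.11; 0.14 with totals).

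Within the NF-kB system, subunits and inhibitors fell together: of 18 measured, 14 were lower and 1 higher under both scalings (median -1.66). The higher one was Chuk, a kinase of the pathway (0.96 ± 0.18). Beside Nfkbia the lower ones included the subunit Relb (-2.1 ± 0.16) and the feedback inhibitors Tnfaip3, at 110.0, 70.3 and 87.2 CPM against 10.002, 12.7, 14.9 and 14.8 CPM (-2.77 ± 0.22), and Tnip1 (-2.19 ± 0.17). Of 14 interferon regulatory and STAT factors 11 were lower and 1 higher under both. Irf1 stood at 118, 132 and 149.6 CPM against 30.9, 30.7, 26.5 and 23.2 CPM and fell (-2.26 ± 0.14, adjusted p = 1.30e-07). Irf9 (-1.07 ± 0.12) and Stat2 (-0.71 ± 0.12), partners in the response to type I interferon, and the myeloid factor Irf8 (-1.8 ± 0.20) fell as well. Socs1, an inhibitor of cytokine signalling, fell (-1.94 ± 0.41), one of 7 lower among 8 of its family, a count of 4 without GalN/LPS library 2.

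Promoters of 2 genes that fell, a CXC chemokine and an inhibitor of NF-kB, are shown with their matches to the NF-kB motif. In RefSeq promoters of GRCm38.p6 the NF-kB motif GGNNTTTCC (either strand) was in 5 of the 9 promoters found for 9 CXC chemokines, in 6 of 16 for 13 cytokine ligands and in 8 of 22 for 14 NF-kB genes. It was in 5.82% of all promoters, in 6.14% of those of 10500 tested genes found in the table, and in 7.11% of those of genes lower under both scalings. Other lists with many lower members held it in these counts: 1 of 11 promoters for CC chemokines, 1 of 14 for AP-1 factors, 0 of 10 for Kruppel-like factors and 0 of 11 for neutrophil markers. Leukocyte adhesion genes had it in 2 of 5 promoters, MAP kinase phosphatases in 2 of 8, phagocyte effectors in 2 of 10 and p53 genes in 4 of 20. The acute-phase proteins, many of which were higher, had it in 4 of 19. The AP-1 motif TGANTCA was in 3, 5 and 7 promoters of the CXC chemokine, cytokine and NF-kB lists, against 7.81% of all. Matches of the motifs may overlap each other. A match describes the letters and is not evidence of binding. In CXC chemokines and NF-kB genes, the member with the smallest adjusted p that held the motif is printed 5′ to 3′, with the motif or its reverse complement in capitals: Cxcl10 (chr5:92348840-92349139, minus strand, 1 match) and Nfkbia (chr12:55492598-55492897, minus strand, 2 matches).
Cxcl10: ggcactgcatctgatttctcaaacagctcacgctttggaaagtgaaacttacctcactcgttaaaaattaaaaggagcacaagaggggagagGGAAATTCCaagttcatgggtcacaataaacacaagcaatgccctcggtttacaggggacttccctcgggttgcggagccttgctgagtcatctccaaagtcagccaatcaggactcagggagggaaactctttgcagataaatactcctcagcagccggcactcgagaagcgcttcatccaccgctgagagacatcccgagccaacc
Nfkbia: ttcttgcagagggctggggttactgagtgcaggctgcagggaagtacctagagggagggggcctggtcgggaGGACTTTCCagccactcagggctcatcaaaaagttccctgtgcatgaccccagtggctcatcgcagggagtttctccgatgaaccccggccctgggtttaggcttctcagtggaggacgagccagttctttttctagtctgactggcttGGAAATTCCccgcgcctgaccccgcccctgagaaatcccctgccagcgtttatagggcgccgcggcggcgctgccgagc

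All 13 measured leukocyte adhesion genes were lower under both scalings (median -1.56). Sele, E-selectin of activated endothelium, stood at 23.6, 9.08 and 14.6 CPM in the GalN/LPS libraries and 0.635, 2.19, 0.334 and 1.44 CPM in the pretreated libraries (-3.74 ± 0.43, adjusted p = 1.54e-05). Icam1, to which leukocyte integrins bind, stood at 156, 101 and 143 CPM against 27.2, 28, 24.6 and 21.7 CPM (-2.39 ± 0.18, adjusted p = 6.54e-07), and Vcam1 at 176, 94.2 and 145 CPM against 10.3, 32.3, 20.6 and 19.2 CPM (-2.74 ± 0.29). The integrin subunit Itgal, carried by the leukocytes themselves, fell by less (-1.56 ± 0.18). In bulk tissue, fewer cells of a type and less RNA per cell cannot be told apart.

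Many genes that decide between survival and death downstream of tumor necrosis factor were lower, on both sides. Of 19 members of the receptor and death complex 13 were lower under both scalings and 2 higher with TMM alone. Of 16 BCL2 family genes 8 were lower under both, 8 were not called with TMM and 0 were higher (1 without GalN/LPS library 2). The ubiquitin ligases Birc3 (-2.22 ± 0.14) and Birc2 (-1.31 ± 0.15), the adaptor Traf2 (-1.33 ± 0.17) and the caspase-8 inhibitor Cflar, at 97.3, 68.5 and 81.2 CPM against 41, 39.1, 34.5 and 29.5 CPM (-1.19 ± 0.14), all of which protect cells from death by tumor necrosis factor, fell. Mcl1, an inhibitor of apoptosis, stood at 149, 109 and 146 CPM against 46.8, 55.4, 42.5 and 51.3 CPM (-1.46 ± 0.14, adjusted p = 2.98e-06), against 76.8 ± 9.86 CPM in saline livers. The pro-death members Pmaip1 (-2.07 ± 0.25) and Bcl2l11 (-1.41 ± 0.17) fell, and pretreated Bcl2l11, at 4.75 ± 0.209 CPM, lay near its saline mean of 4.5 ± 0.363 CPM.

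The early response to stress and mitogens, taken with mRNA decay factors, was lower in most members. All 15 AP-1 factors were lower under both scalings (median -1.59), as were 8 of 12 EGR and IER genes (median -1.68), 11 of 13 Kruppel-like factors, 7 of 9 MAP kinase phosphatases (median -1.75) and 9 of 16 mRNA decay factors. With TMM alone 1 Kruppel-like factor was higher (0 without GalN/LPS library 1 or 3). Fosl2 stood at 74, 42.8 and 65.2 CPM in the GalN/LPS libraries and 11, 12.6, 6.59 and 11 CPM in the pretreated libraries (-2.55 ± 0.22). Atf3 stood at 27.4, 53 and 78.4 CPM against 15.6, 4.37, 2.5 and 3.55 CPM, with pretreated library 1 the highest of its group (-3.02 ± 0.48, adjusted p = 0.000159). Dusp1, which switches off p38 and JNK kinases, stood at 163, 133 and 171 CPM against 38.6, 46.8, 26.4 and 25.4 CPM (-2.18 ± 0.28). Klf6 (-2.15 ± 0.21), Klf2 (-1.43 ± 0.16), Btg1 (-1.53 ± 0.14), Ier5 (-1.99 ± 0.26), Dusp5 (-2.94 ± 0.31), Dusp2 (-1.75 ± 0.25), and Zc3h12a (-1.9 ± 0.17) and Zfp36 (-1.64 ± 0.30), which destroy cytokine mRNAs, fell with them.

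Stress programs did not all go the same way. The p53 list had 11 of 18 lower and 3 higher under both scalings: Trp53 itself stood at 24.4, 14.6 and 22 CPM against 5.4, 7.52, 7.09 and 6.77 CPM (-1.6 ± 0.17) and Sesn2 fell (-1.95 ± 0.25), while Trp53inp1, Ei24 (0.99 ± 0.15, 0.49 with totals) and Perp (0.85 ± 0.18, 0.34 with totals), targets that p53 induces, rose. Of 18 genes of the ATF4 response 10 were lower under both, Atf4 among them (-0.85 ± 0.16), and of 15 cytosolic heat shock genes 9, with the co-chaperones Bag3 (-1.74 ± 0.24) and Dnajb1 (-1.56 ± 0.22). Among all genes 30.1% were lower and 4.31% higher under both. Chaperones of the endoplasmic reticulum were higher with TMM in 9 of 19 cases and with totals in 0. With TMM 24.4% of all genes were higher, and 65.6% in the highest of 5 classes by mean level. Calnexin, Canx, was 0.60 ± 0.13 with TMM and 0.11 with totals (adjusted p = 0.417). The count with TMM was 4 without GalN/LPS library 1 and 5 without library 3. Xbp1, the factor that drives these chaperones, was the 1 member lower with TMM, at 64, 58.1 and 69.4 CPM against 36.1, 31.2, 18.9 and 23.2 CPM (-1.22 ± 0.19), far under its saline mean of 218 ± 42.5 CPM. For the oxidative stress factor NRF2 and its targets, 8 of 18 genes were higher with TMM alone and 5 lower under both, the latter near the 30.1% of all genes. Its mRNA Nfe2l2 fell (-1.67 ± 0.17), as did its target Hmox1, at 168, 133 and 227 CPM against 68.1, 89.2, 89.2 and 45.9 CPM (-1.27 ± 0.22), while Srxn1 was higher with TMM alone (0.87 ± 0.16; 0.34 with totals, adjusted p = 0.109).

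Among all genes lower under both scalings, with no overlap and at least 5 CPM in GalN/LPS livers, the 12 largest falls included 6 already described or of the same families (Akap12, Nr4a3, Ptgs2, Ccl2, Egr2 and Sele). The others were Fgf23, the phosphate hormone, the ubiquitin-like protein Ubd (-3.99 ± 0.33), Ch25h, which makes the antiviral sterol 25-hydroxycholesterol, the cystine transporter Slc7a11 (-3.91 ± 0.41), the endothelial gene Apold1 (-3.85 ± 0.45) and the matrix protein Thbs1 (-3.79 ± 0.37). Ch25h stood at 44.3, 21.1 and 57 CPM in the GalN/LPS libraries and 1.98, 5.94, 0.917 and 1.52 CPM in the pretreated libraries (-3.93 ± 0.45, adjusted p = 1.34e-05). For Fgf23, at 8.76, 1.64 and 6.2 CPM against 0, 1.23, 0 and 0 CPM, only pretreated library 2 of the 4 held any counts, so its fold rests on that library, and DESeq2 did not call it (-4.27, adjusted p = 0.337). Inhbb, the activin subunit, stood at 80.9, 37.1 and 76.4 CPM against 4.37, 17.7, 2.5 and 2.45 CPM (-3.23 ± 0.50), again with library 2 the highest. Plaur, the urokinase receptor, fell (-1.98 ± 0.30).

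Markers of cells other than hepatocytes were lower with these genes, and their part in the results above was not tested. Of the 12 neutrophil markers 12 were lower under both scalings. S100a8 stood at 302, 224 and 270.1 CPM against 134, 81.6, 93.9 and 99.9 CPM (-1.38 ± 0.30), and Trem1 fell by more (-2.22 ± 0.21). Monocyte markers fell in 7 of 9 cases, with a summed level of 325 to 504 CPM in GalN/LPS and 145 to 205 CPM in pretreated livers. The Kupffer cell and macrophage markers fell in 11 of 12 cases, and in 7 without GalN/LPS library 3. Clec4f, a lectin restricted to Kupffer cells, stood at 178, 129.5 and 198 CPM against 93, 72.8, 92.1 and 48.5 CPM (-1.14 ± 0.20). All 12 markers of sinusoidal endothelium were lower, with sums of 693 to 875 CPM in GalN/LPS and 206 to 452 CPM in pretreated livers, and Dnase1l3 fell among them (-2.0 ± 0.18). Stellate cell and fibroblast markers were lower in 11 of 12 cases and summed to 647 to 1170.1 CPM in GalN/LPS and 182 to 527 CPM in pretreated livers. The proteoglycan Dcn stood at 387, 224 and 289 CPM against 50.1, 173, 66.3 and 115 CPM (-1.57 ± 0.31). In saline livers neutrophil markers summed to 6.38 to 18 CPM and monocyte markers to 19.3 to 27.9 CPM. Kupffer cell and macrophage markers summed there to 220 to 276 CPM and endothelial markers to 99.2 to 117 CPM. The pretreated sums of these lists lay above saline and below GalN/LPS. For stellate cell and fibroblast markers, saline (149 to 242 CPM) and pretreated sums overlapped.

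T and NK cell markers summed to 41.5 to 57 CPM in GalN/LPS and 22 to 25.9 CPM in pretreated livers, and B cell markers to 181 to 269 CPM in GalN/LPS and 50.9 to 108 CPM in pretreated livers. Of these, 8 of 12 and 7 of 7 were lower under both scalings, 4 and 4 without GalN/LPS library 3, and the T and NK count was also 4 without GalN/LPS library 2 or pretreated library 2, and 5 without GalN/LPS library 1 or pretreated library 3 or 4. Cholangiocyte markers were lower in 3 of 5 cases, including the bile duct factor Sox9 (-2.41 ± 0.47), with sums of 91.9 to 178 CPM in GalN/LPS and 64.3 to 102 CPM in pretreated livers. Erythroid and platelet markers summed to 1061 to 2007 CPM in GalN/LPS and 731 to 1177 CPM in pretreated livers, with 5 of 8 lower, but 1 without GalN/LPS library 3 and 2 without pretreated library 2 or 4. In saline livers T and NK cell markers summed to 5.38 to 7.34 CPM and B cell markers to 50.5 to 67.8 CPM. Cholangiocyte markers summed there to 44.6 to 68.6 CPM, and erythroid and platelet markers to 252 to 716 CPM. The number of defining markers at 0 was 0 in each of these lists. Hepatocyte markers, abundant as the tissue label has it, were higher with TMM in 10 of 12 cases (6 without GalN/LPS library 1) and with totals in 1, and they summed to 102440.0 to 144223 CPM in GalN/LPS and 153805 to 239324 CPM in pretreated livers. Scaled to totals, the sums overlapped, at 116574 to 130408 CPM in GalN/LPS and 113968 to 169783 in pretreated livers.

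The genes with the largest rises that held under both scalings, with no overlap between groups, were of mixed function. Setdb2, a histone methyltransferase of the immune response, stood at 8.49, 10.2 and 6.35 CPM in the GalN/LPS libraries and 37.6, 43.2, 80.9 and 57.4 CPM in the pretreated libraries (ENSMUSG00000071350, chromosome 14, 59402009 to 59440884 in GRCm38), and rose (2.72 ± 0.24, adjusted p = 2.07e-06; 2.21 with totals). In GalN/LPS livers its level was close to that of saline livers (7.68 ± 0.564 CPM), and with dmPGE2 alone it was 8.88 ± 0.871 CPM. The protein Phf11c, encoded by a gene family with similar members, rose as well (2.13 ± 0.32). Igfbp1, the hepatic binding protein of insulin-like growth factors, stood at 34.5, 88 and 59.2 CPM against 319.9, 296, 176 and 234 CPM (2.08 ± 0.58; 1.63 with totals). Slc10a2, the bile acid transporter of ileum and bile ducts, stood at 20.8, 31.1 and 31.7 CPM against 172, 83.4, 96 and 132 CPM (2.12 ± 0.30, adjusted p = 6.94e-05). The protease inhibitor Serpina3n rose from 490.0 ± 88.6 to 2630.2 ± 735 CPM (2.42 ± 0.41), and its mean with dmPGE2 alone was 2723 ± 1265 CPM. Its neighbour Serpina3m rose too (2.09 ± 0.30), but the 2 belong to one cluster of similar genes and reads may be split. Serpina3m also overlaps another gene of that cluster, on the same strand and with more counts, so some of its reads may belong to that gene. The phenobarbital-inducible cytochrome Cyp2b10 (2.39 ± 0.44), the kinase Map2k6 (2.08 ± 0.29), the glycogen-targeting subunit Ppp1r3g (2.3 ± 0.56), the defensin Defb1 (2.14 ± 0.47) and Fam107a, at 1.43, 2.58 and 1.38 CPM against 12, 11.6, 11.9 and 9.47 CPM (2.65 ± 0.38), complete the 12 with Trp53inp1.

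**Figure D3:**
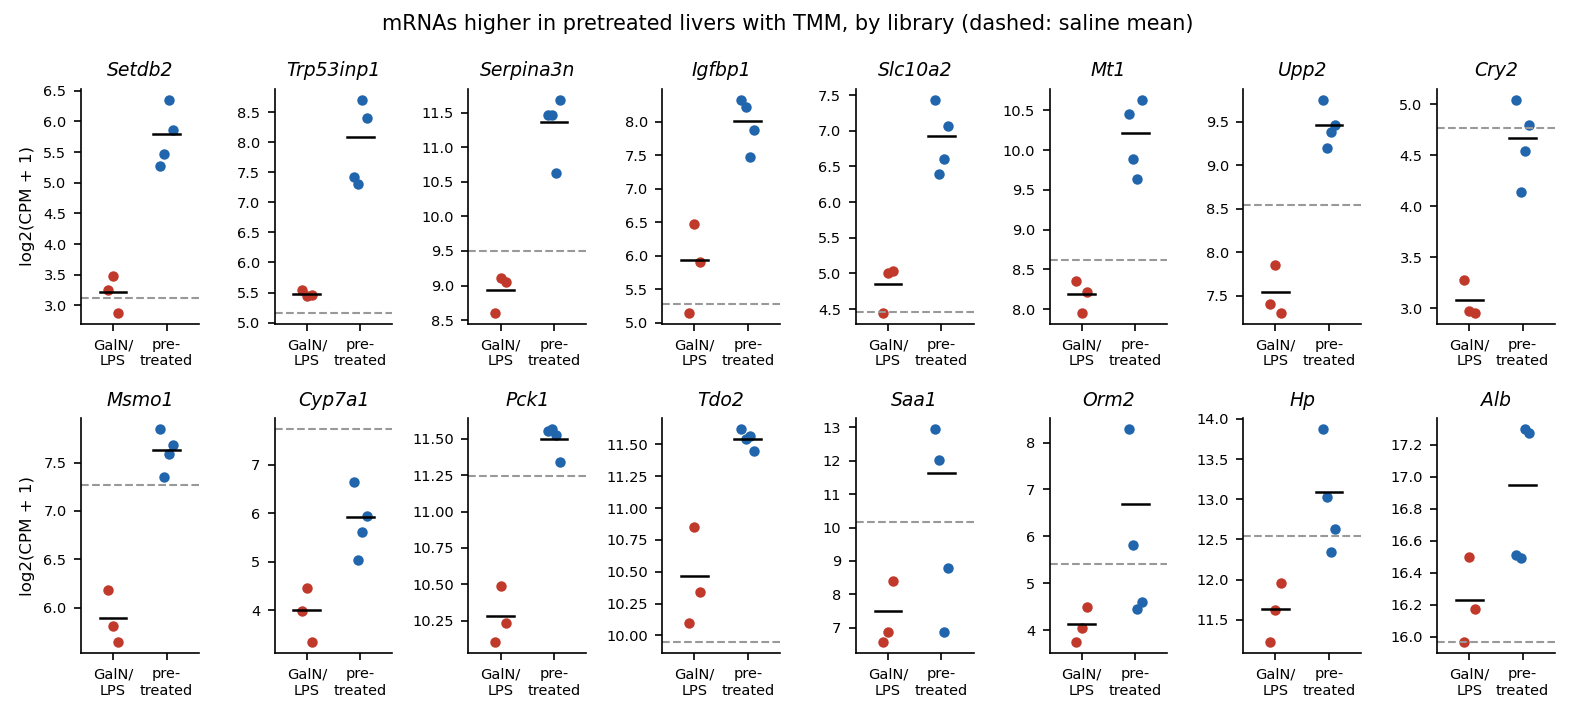
Level of 16 mRNAs in each library (y axis, log2(CPM + 1), TMM; a panel per gene with its own axis) in GalN/LPS (red, 3 libraries) and pretreated livers (blue, 4), with group means as bars and the saline mean as a dashed line. Setdb2 lies near its saline mean of 7.68 ± 0.564 CPM in GalN/LPS and far above it in pretreated livers, while for Saa1, Orm2 and Alb the groups overlap.

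Acute-phase proteins, which the liver makes in inflammation, were higher while the cytokines were lower. Of 22 measured 16 were higher with TMM and 13 under both scalings, with 0 lower (median 1.17 with TMM, 0.67 with totals). The spread between pretreated libraries was large for the strongest members. Saa1, serum amyloid A1, stood at 93.7, 115 and 333 CPM in the GalN/LPS libraries and 7946, 4184, 115 and 442 CPM in the pretreated libraries, so libraries 1 and 2 were far above all GalN/LPS libraries, library 4 was above the highest by less, and library 3 lay within their range (4.13 ± 1.19, adjusted p = 0.00868). Saa2 showed the same spread, at 33.7, 26 and 118 CPM against 5902, 2037, 34.5 and 192 CPM (5.11 ± 1.49, adjusted p = 0.00945). With limma on log2(FPKM + 0.1) both missed the threshold, at 2.84 for Saa1 (adjusted p = 0.0665) and 3.44 for Saa2 (adjusted p = 0.0689). Reads of Saa1 and Saa2, which are nearly identical, cannot be assigned with certainty. Orm2 stood at 12.4, 15.6 and 21.6 CPM against 312, 55.3, 20.9 and 23.1 CPM (2.64 ± 0.81), and lost its call without pretreated library 1 (1.01, adjusted p = 0.0973) or GalN/LPS library 1 (2.47, adjusted p = 0.0517). Saa4 did not share this spread, at 238, 385 and 355 CPM against 1747, 1177, 767 and 1083 CPM (1.87 ± 0.28, adjusted p = 0.00011). Haptoglobin, Hp, stood at 2387, 3151 and 3979 CPM against 15031, 8329.5, 5187 and 6353 CPM (1.46 ± 0.35). Saa3, the family member known from macrophages as well, passed neither test (-0.29 ± 0.46 with TMM, -0.78 with totals).

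Other secreted liver proteins rose by less. Of 23 carrier and secreted proteins 19 were higher with TMM and 7 with totals, and of 25 complement genes 18 and 13, with 5 lower under both. Those 5 were the C1q chains C1qa, C1qb and C1qc and properdin, Cfp, which macrophages and other leukocytes make, and C5ar1, the leukocyte receptor for complement fragment C5a (-1.82 ± 0.16). The call of C1qc was lost without GalN/LPS library 3 (-0.47, adjusted p = 0.0884). Of 28 coagulation and fibrinolysis genes 20 were higher with TMM, 11 were higher under both scalings and 8 lower under both, beside 4.31% and 30.1% of all genes under both. The fibrinogen chain Fga stood at 2686, 4711 and 3465 CPM against 10205, 7706, 7784 and 11523 CPM (1.36 ± 0.33; 0.87 with totals), and Fgb (1.24 ± 0.29) and Fgg (1.19 ± 0.28) rose with it. The complement components C6 (1.06 ± 0.14) and C4b (1.11 ± 0.18) and the coagulation factor F11 (1.01 ± 0.14) rose. Albumin, Alb, stood at 64102, 92823 and 74045 CPM against 93276, 92291, 161291 and 158657 CPM, passed with TMM (0.72 ± 0.25, adjusted p = 0.0246) and did not with totals (0.20, adjusted p = 0.327). Its call with TMM was lost without GalN/LPS library 1 or 3 or pretreated library 3 or 4, with adjusted p from 0.0704 to 0.0966. It was also lost with the 7 libraries alone (adjusted p = 0.0677), with a stricter filter (adjusted p = 0.073) and with limma on log2(FPKM + 0.1) (adjusted p = 0.146).

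Transcription factors of the hepatocyte did not follow its products. Of 20 measured 13 were lower under both scalings and 2 higher with TMM alone (median -1.13). Cebpb and Cebpd, factors of the acute-phase response, fell: Cebpb stood at 117, 101 and 163 CPM against 57.7, 41.1, 33.4 and 34.7 CPM (-1.6 ± 0.19), and Cebpd at 129, 93.2 and 126 CPM against 53.3, 38.4, 22.4 and 36.6 CPM (-1.62 ± 0.24). Cebpa, at 489.9 ± 25.1 CPM in saline livers, stood at 34.3, 59.4 and 70.9 CPM against 36.9, 14, 8.67 and 15.7 CPM (-1.54 ± 0.35, adjusted p = 0.00179), with pretreated library 1 inside the GalN/LPS range. Foxa2, a pioneer factor, fell (-1.85 ± 0.41), as did Gata4 (-1.3 ± 0.21). Onecut1 stood at 1.22, 10.1 and 1.13 CPM against 1.11, 0.82, 0.50 and 0.592 CPM, where GalN/LPS library 2 carried most of the difference (-2.39 ± 0.90; -0.61 without that library, adjusted p = 0.584). Its call was also lost without any 1 of the pretreated libraries (adjusted p from 0.0504 to 0.0769). The 2 higher members were the nuclear receptor genes Hnf4a (0.63 ± 0.18) and Nr1h4, the bile acid receptor (0.67 ± 0.13), both without a call by totals (0.14 and 0.15). Without GalN/LPS library 1, Hnf4a was 0.49 (adjusted p = 0.0533). Of 28 nuclear receptor genes, Nr1h4 among them, 10 were lower under both scalings, where 30.1% of all genes were, and 5 were higher with TMM alone, 3 without GalN/LPS library 3. The glucocorticoid receptor Nr3c1 fell (-1.0 ± 0.14). In the circadian clock 7 of 18 genes were lower and 1 higher under both, near the 30.1% and 4.31% of all genes. The repressor Cry2 rose, at 8.71, 6.87 and 6.76 CPM against 32, 16.6, 22.4 and 26.8 CPM (1.71 ± 0.20, 1.17 with totals), to near its saline mean of 26.3 ± 0.676 CPM, while Per1 (-1.21 ± 0.19) and Bhlhe40 (-1.47 ± 0.24) fell.

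Cholesterol synthesis was the list with the highest median of the 59 (1.26 with TMM, 0.77 with totals). Of 25 genes 21 were higher with TMM and 17 under both scalings, and 0 were lower. Msmo1, a demethylating oxidase of the pathway, stood at 71.4, 55.3 and 49 CPM in the GalN/LPS libraries and 229, 162, 192 and 204 CPM in the pretreated libraries (1.75 ± 0.20, adjusted p = 1.39e-05; 1.22 with totals). Every pretreated library lay above every GalN/LPS library. Nsdhl (1.65 ± 0.20), Hsd17b7 (1.46 ± 0.18) and Hmgcs1 (1.42 ± 0.23) rose. The sterol-sensing factor Srebf2, which drives these genes, passed neither test (0.23 ± 0.15 with TMM, -0.28 with totals). The sterol response motif TCACNCCAC was in 1 of 20 RefSeq promoters of 17 list genes, that of Hmgcs1, against 1.24% of all promoters. It is shown for that gene (chr13:119690101-119690400, plus strand) with the motif in capitals.
Hmgcs1: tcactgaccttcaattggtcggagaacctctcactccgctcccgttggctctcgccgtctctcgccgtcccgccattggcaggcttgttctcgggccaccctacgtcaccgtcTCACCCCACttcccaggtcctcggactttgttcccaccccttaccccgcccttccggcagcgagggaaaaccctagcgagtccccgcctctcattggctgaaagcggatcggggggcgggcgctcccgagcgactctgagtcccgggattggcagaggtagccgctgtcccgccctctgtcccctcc

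Genes of fatty acid and triglyceride synthesis were higher in 15 of 20 cases with TMM and 5 with totals. The phosphatase Lpin2 (1.54 ± 0.23) and the desaturase Fads1 (1.07 ± 0.22) were among those higher under both. Acaca, the first enzyme of the pathway, was higher with TMM alone (1.09 ± 0.22; adjusted p = 0.0857 with totals). Bile acid genes were higher in 18 of 19 cases with TMM and 10 under both. Cyp7a1, the rate-limiting enzyme of bile acid synthesis, stood at 14.9, 20.9 and 9.12 CPM against 98.4, 31.6, 47.8 and 59.97 CPM (1.99 ± 0.34, adjusted p = 0.000296), well under its saline mean of 212 ± 43.3 CPM in every library. The uptake transporter Slc10a1 (1.12 ± 0.16) and the conjugating enzyme Baat (1.13 ± 0.14) rose.

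Drug and steroid metabolism followed: 18 of 26 cytochromes P450 were higher with TMM and 6 under both, among them Cyp3a13 (1.69 ± 0.25) and Cyp27a1 (1.1 ± 0.20), though members of this family share sequence. Of all genes 24.4% were higher with TMM and 4.31% under both scalings. In the highest of 5 classes of genes by mean level, 65.6% were higher with TMM. Conjugation enzymes were higher in 20 of 25 cases with TMM (12 without GalN/LPS library 3) and 7 under both, for example Tpmt, at 38.5, 40.8 and 39 CPM against 80.6, 77.5, 70.3 and 81.4 CPM (0.97 ± 0.10). Of 30 urea cycle and amino acid genes 28 were higher with TMM and 11 under both. Tryptophan dioxygenase, Tdo2, stood at 1092, 1850.0 and 1297 CPM against 3148, 2981, 3029 and 2785 CPM (1.08 ± 0.18), and the betaine enzyme Bhmt at 2064, 1949 and 2454 CPM against 7822, 6111, 4442 and 4909 CPM (1.43 ± 0.21). The median of the list was 0.90.

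Glucose metabolism was split, with 15 of 26 genes higher and 9 lower with TMM, and 4 and 10 with totals. Of all genes 24.4% were higher and 30.1% lower with TMM, 4.31% and 47.6% with totals, and 4.31% and 30.1% under both. The lower count of this list was thus near the share of all genes with TMM and below it with totals. In the highest of 5 classes of genes by mean level, 65.6% were higher with TMM. Pck1, the gluconeogenic carboxykinase, stood at 1098, 1437 and 1203 CPM against 3004, 3034, 2944 and 2595 CPM (1.22 ± 0.17, adjusted p = 6.62e-05). The glycolytic genes Pfkfb3 (-1.91 ± 0.25) and Hk1 (-1.66 ± 0.26), by contrast, fell, and so did Pdk4 (-1.69 ± 0.31), which holds back glucose oxidation. Genes of uridine and galactose metabolism handle galactosamine: 12 of 19 were higher and 3 lower with TMM, and 3 and 3 under both. The 2 uridine phosphorylases moved in opposite directions. Upp2, the liver enzyme, stood at 168, 229.6 and 157 CPM against 861, 587, 667 and 701 CPM (1.93 ± 0.26), and Upp1, the inducible enzyme, at 41, 25.3 and 48.3 CPM against 13.1, 9.43, 10.01 and 7.27 CPM (-1.94 ± 0.21). The CTP synthase Ctps fell (-1.5 ± 0.23) and the galactose mutarotase Galm rose (0.83 ± 0.14). The members higher under both were Upp2, Galm and Ugdh, and those lower Upp1, Ctps and the uridine kinase Uck2, whose call was lost without GalN/LPS library 3 (-0.54, adjusted p = 0.0737). Of 9 metallothionein and zinc transport genes 3 were higher under both and 2 lower (1 without GalN/LPS library 3). Mt1 stood at 326, 247 and 297 CPM against 1407, 945, 794 and 1590.4 CPM (2.03 ± 0.37, adjusted p = 0.000448; 1.48 with totals), and the zinc importers Slc39a14 (1.08 ± 0.26) and Slc39a4 (1.01 ± 0.13) rose.

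Beside 24.4% and 4.31% of all genes, fatty acid oxidation was higher with TMM in 17 of 25 genes and under both scalings in 2. Among the 2 was the dehydrogenase Hadh (0.96 ± 0.17; 0.46 with totals). Its 3 lower members were Pdk4, the lipase inhibitor Angptl4 and the fasting hormone Fgf21, which stood at 0.106, 0.315 and 0.819 CPM against 0, 0, 0 and 0 CPM (adjusted p = 0.00382) and for which no fold is given against libraries without a count. Angptl4 was -0.96 ± 0.35 (adjusted p = 0.0281) and -1.54 without pretreated library 1, and its call was lost without GalN/LPS library 2 or 3 or pretreated library 2, 3 or 4 (adjusted p from 0.0594 to 0.138) and with the 7 libraries alone (adjusted p = 0.0516). In the growth factor list 10 of 23 were higher and 5 lower with TMM, 6 higher without GalN/LPS library 3 and 3 lower without GalN/LPS library 1. Egfr, the epidermal growth factor receptor, rose (0.92 ± 0.18; 0.43 with totals), and Fstl1, which binds activin-family ligands, fell (-2.01 ± 0.34). Of 22 cell cycle genes 4 were lower under both, a smaller share than the 30.1% of all genes. Among the 4 were the growth factor target Myc, at 26.6, 29 and 39.3 CPM against 14.3, 3.62, 2.17 and 2.54 CPM (-2.48 ± 0.62), and the cyclin Ccnd2 (-1.81 ± 0.23). Rrm2, a subunit of ribonucleotide reductase, was higher with TMM alone (1.2 ± 0.33). Of 15 phagocyte effector genes 14 were lower under both, for example the itaconate enzyme Acod1 at 139, 90.2 and 121 CPM against 33.1, 24.9, 45 and 28.6 CPM (-1.83 ± 0.21) and lysozyme, Lyz2 (-1.53 ± 0.20).

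Mitochondrial genes divided by the genome that encodes them. Of 30 nuclear genes of the respiratory chain 27 were higher with TMM and 6 under both scalings, with 0 lower, such as Atp5a1, at 842, 1159.6 and 908 CPM against 1872, 1765, 1873 and 1747 CPM (0.90 ± 0.16; 0.41 with totals). Of the 13 genes of the mitochondrial genome 0 were higher, 5 were lower with TMM (2 without GalN/LPS library 2, 3 without pretreated library 2) and 11 with totals (medians -0.81 and -1.34). Among all genes 30.1% were lower with TMM, near the 5 of 13, and 47.6% with totals. Of all genes 24.4% were higher with TMM and 4.31% under both, and in the highest of 5 classes by mean level 65.6% were higher with TMM. The complex I subunit mt-Nd2 stood at 4988, 6763 and 5707 CPM against 3142, 2084, 3284 and 4457 CPM (-0.84 ± 0.26), and the cytochrome oxidase subunit mt-Co1 was -0.40 ± 0.25 with TMM (adjusted p = 0.192) and -0.93 with totals (adjusted p = 0.00114).

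Cytosolic ribosomal protein mRNAs were higher in 20 of 28 cases with TMM and in 0 with totals, and the median went from 0.35 to -0.16. In the highest of 5 classes of genes by mean level, 65.6% were higher with TMM. For Rpl4 the values were 0.50 ± 0.13 with TMM and -0.01 with totals. The count with TMM was 3 without GalN/LPS library 3, 7 without GalN/LPS library 1, and 8, 12 and 13 without pretreated library 1, 3 and 4, and many processed pseudogenes share these sequences. Genes that build ribosomes had no such reversal: 13 of 25 were lower under both and 0 higher, with Wdr43 at 17.6, 12.2 and 17.2 CPM against 3.49, 4.99, 4.5 and 5.24 CPM (-1.78 ± 0.19) and Nolc1 falling too (-1.89 ± 0.22). Proteasome genes were higher in 18 of 23 cases with TMM and 0 with totals, and 3 were lower under both. Those 3 were the subunits of the interferon-inducible immunoproteasome, Psmb8 (-0.52 ± 0.15), Psmb9, which overlaps Tap1 (-0.45 ± 0.18), and Psmb10 (-0.31 ± 0.12), while the constitutive subunit Psmb7 was 0.68 ± 0.13 with TMM and 0.18 with totals. With TMM the count of 3 was 1 without GalN/LPS library 1 or 3, or pretreated library 3 or 4. Antigen presentation genes were lower under both in 14 of 18 cases, with the peptide transporter Tap1 at 122, 87.9 and 117 CPM against 41.4, 41.5, 35 and 29.4 CPM (-1.57 ± 0.18).

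**Figure D4:**
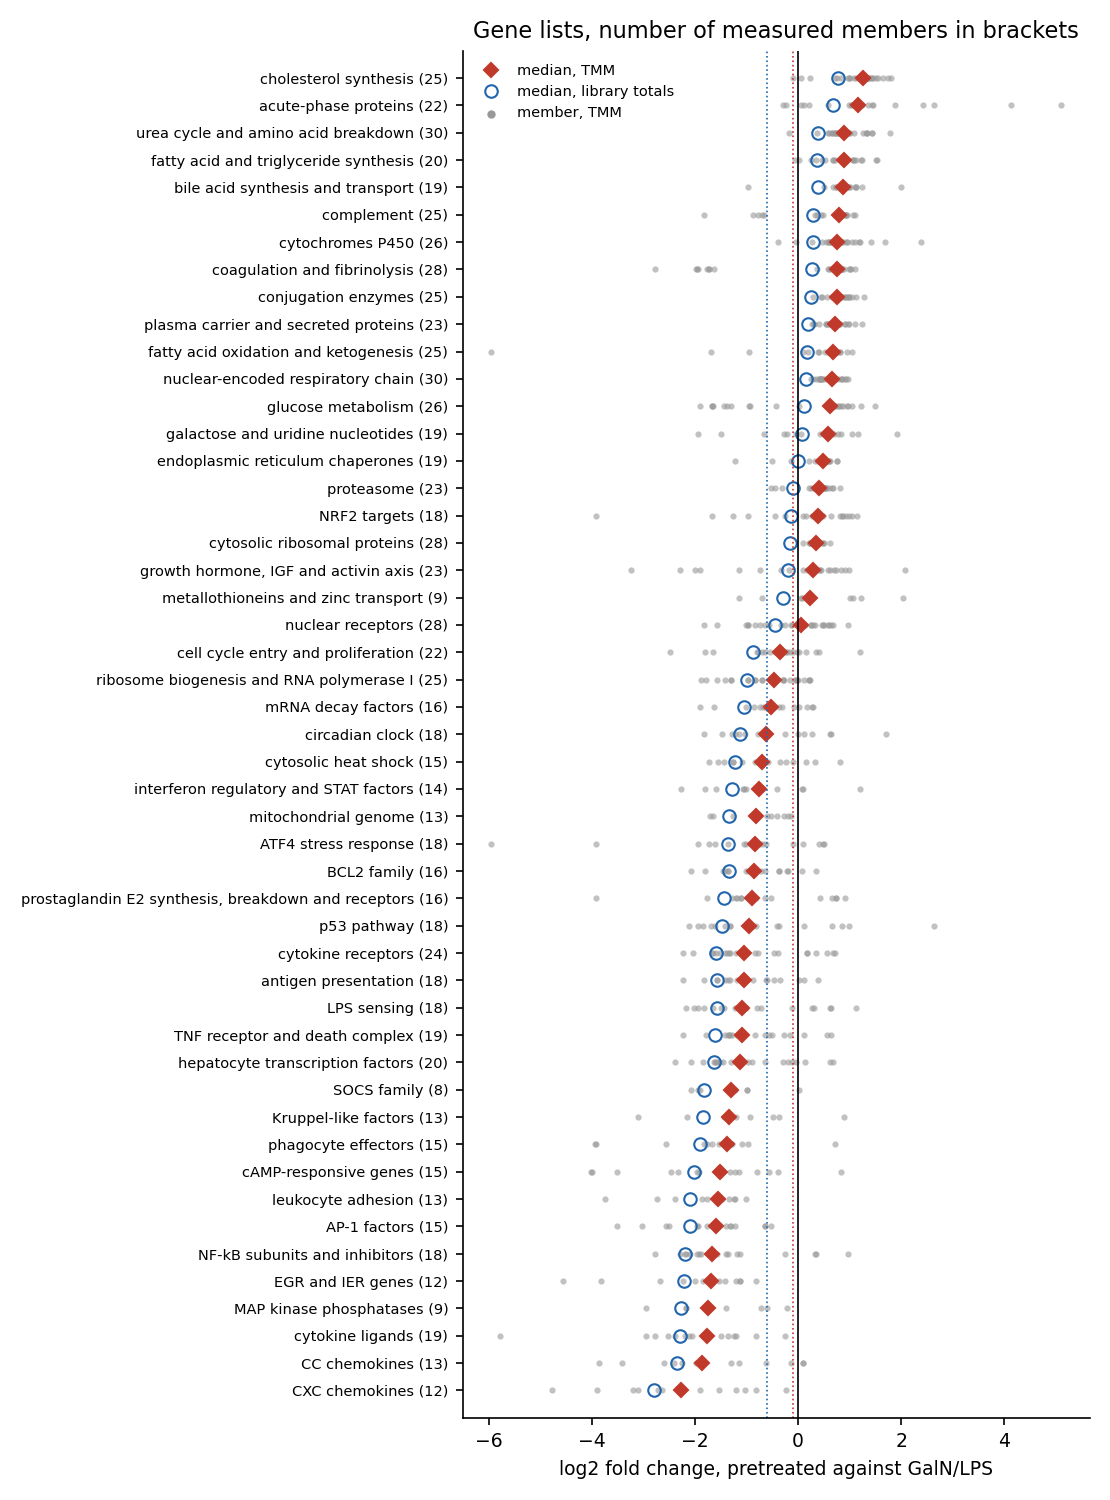
Log2 fold change (x axis) of the members of 49 gene lists (y axis, number measured in brackets), with grey points for members and filled diamonds for medians with TMM, and open circles for medians with library totals. Dotted lines mark the medians of all genes, -0.10 with TMM and -0.61 with totals: the lists at the bottom, of chemokines and cytokines, lie far below both, and the medians of cholesterol synthesis and acute-phase proteins stay above 0 under both.

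Direction followed the abundance of the mRNA. In 5 classes of equal size by mean level, 3.43% of the genes in the lowest class (up to 1.58 CPM) were higher and 21.4% lower with TMM, in the middle class 13.9% and 46.1%, and in the highest class (from 37.1 CPM) 65.6% and 11%. Lists mostly higher with TMM, such as cytochromes P450, fatty acid oxidation and ribosomal proteins, stand beside that 65.6% where their members are abundant. The median log2 fold change by class was -0.47, -0.49, -0.37, 0.08 and 0.50. With totals the highest class had 14.5% higher and 21.2% lower, and the medians of the first 4 classes were -0.98, -0.99, -0.89 and -0.43. In 5 classes by gene length, in the shortest 25.8% were higher and 17.4% lower, and in the longest (from 7131 bases) 20.6% and 37.1%, and the medians went from 0.20 to -0.25. Of 497 processed pseudogenes tested 19.7% were higher and 4.02% lower with TMM, against 25.8% and 32.2% of 12770 protein-coding genes.

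**Figure D5:**
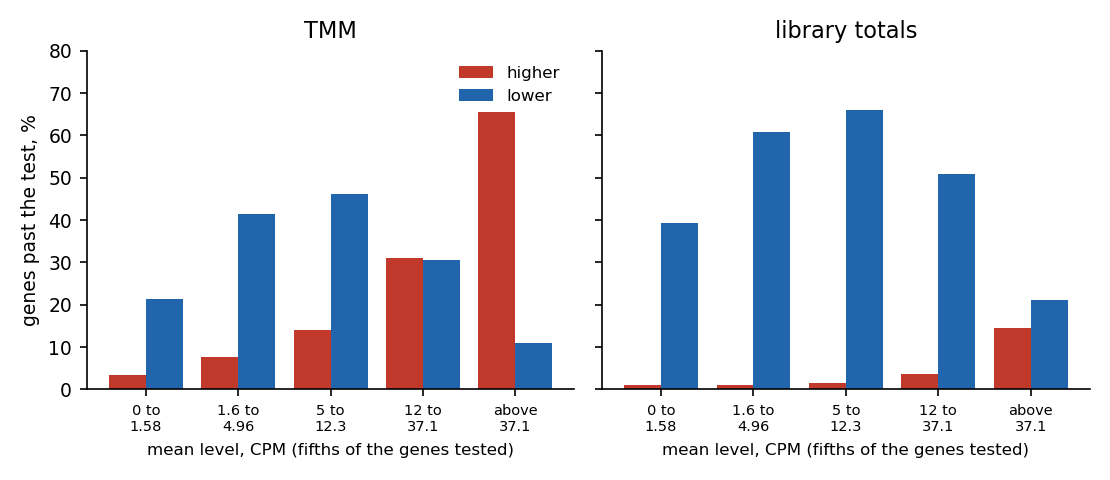
Percent of genes higher (red) and lower (blue) in pretreated livers in each of 5 classes of the genes tested by mean level (x axis, CPM), with TMM (left) and library totals (right). With TMM the higher share grows from 3.43% in the lowest class to 65.6% in the highest, and with totals lower calls outnumber higher ones in every class.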

How the data were processed

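Libraries of liver mRNA were made from 1 µg of RNA with a NEBNext Ultra kit, per the labels' protocols. Reads were aligned with HISAT2 to GRCm38 (mm10), per the submitters' processing notes, while the version, counter, annotation and strandedness were not given in the sources used here. The authors deposited raw read counts per Ensembl gene and a table of FPKM. The counts, with totals of 16575171 to 17709049 in the 7 libraries, gave the results, and the deposited FPKM values served only as an alternative. No replicate pair agreed within sampling noise.

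Counts of all 13 libraries were fitted in edgeR 4.0.16 (R 4.3.3) with its default expression filter and quasi-likelihood test, the group as the only term, and a Benjamini-Hochberg threshold of 0.05, once with TMM factors and once with library totals. The method was tested on simulated data with TMM alone. Few genes were changed there, equally often up and down, so the simulation could not test the choice of scaling. Shares were compared by an exact permutation test (SciPy 1.17.1). Members of the comparison and the 59 gene lists were chosen with earlier results of these data known. The rule for named genes took the 12 largest changes in each direction called under both scalings, without overlap and with at least 5 CPM in the higher group, the 4 smallest adjusted p in each list, and 10 genes set by name (the 4 EP receptors, 3 cytokine genes, Alb, Hpgd and Ptgs2). Outside the rule, and chosen after their values were seen, are Angptl4, C1qa to C1qc, Cebpa, Cfp, Chuk, the fibrinogen genes, Fgf21, Foxa2, Hmgcs1, Hnf4a, Hp, Il1rn, Irak1, Lbp, Onecut1, Orm2, Perp, Psmb8 to Psmb10, S100a8, Saa1 to Saa3, Srebf2, Stat2, Ttc33, Uck2, Ugdh and mt-Co1. Other size factors, DESeq2 1.42.0, limma 3.58.1 on log2(FPKM + 0.1) and log2(FPKM + 1), other filters, fewer libraries and a replicate block were tried as alternatives. The arm with dmPGE2 alone entered the fit, and its levels are given for 2 genes without a test, while a few list members are not reported here. The series text speaks of another injury model, and the labels of the samples were followed.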

Additional observations from a re-analysis of the deposited data

Results flagged for a closer look

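In the pretreated group of 4 libraries, the highest or lowest library was compared with its nearest neighbour for 195 values, and Dixon's ratio passed its 95% critical value for 15 of them (7.69%), where chance gives about 1 in 20. Pretreated library 1 was the highest for 7 mRNAs. Angptl4, an inhibitor of lipoprotein lipase, stood there at 27.7 CPM, with the others from 8.68 to 10.1 CPM. Atf3, a stress-induced AP-1 partner, was at 15.6 CPM, with the others from 2.5 to 4.37 CPM. The growth regulator Myc had 14.3 CPM, with the others from 2.17 to 3.62 CPM. The acute-phase protein Orm2 had 312 CPM, with the others from 20.9 to 55.3 CPM. The proteasome subunit Psmb10 reached 68.5 CPM, with the others from 54.3 to 55.7 CPM. The NF-kB subunit Relb reached 7.62 CPM, with the others from 5.81 to 6.09 CPM. The bile duct factor Sox9 was at 5.0 CPM, with the others from 0.846 to 1.33 CPM. So mRNAs that were lower in the group as a whole, such as Atf3 and Myc, were least reduced in this library.

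Pretreated library 2 was the highest for 4 mRNAs. Akap12 stood there at 19.6 CPM, with the others from 2.62 to 4.5 CPM. The chemokine Cxcl9 was at 64.2 CPM, with the others from 29 to 34.4 CPM. The activin subunit Inhbb was at 17.7 CPM, with the others from 2.45 to 4.37 CPM. Fgf23 was at 1.23 CPM, with the others at 0. Library 3 was the highest for the prostaglandin reductase Ptgr2, at 52.1 CPM, with the others from 47.7 to 48.2 CPM. Library 4 was the lowest for 3 mRNAs. Cd14 stood there at 32.7 CPM, with the others from 43.2 to 45 CPM, the decoy receptor Il1r2 at 7.95 CPM, with the others from 11.2 to 11.8 CPM, and Fam107a at 9.47 CPM, with the others from 11.6 to 12 CPM.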

How the results depend on the processing

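The count of lower genes, 4299, lay between 3469 and 4797 under other size factors, DESeq2, limma on FPKM, no filter, the 7 libraries alone, the replicate block and each library left out in turn. The count of higher genes, 3481, lay between 2477 and 3631 in the same alternatives. Scaling to library totals gave 616 higher and 6804 lower, and totals without the 100 most abundant genes, an alternative chosen after seeing the data, gave 1025 and 6346. A stricter filter left 7947 genes to test, of which 1997 were higher, 2802 lower and 2802 lower under both scalings. With one library left out, the counts were 2477 to 3631 higher, 3469 to 4277 lower, 318 to 601 higher under both and 3469 to 4277 lower under both. Samples with the same number did not deviate together (correlations of -0.31, -0.28 and -0.09), but so few pairs cannot exclude that the numbers pair the libraries. A fit with a replicate block gave 2974 higher, 3715 lower, 492 higher under both and 3715 lower under both. With it the ribosomal protein list had 9 higher members and the carrier and secreted protein list 11, the hepatocyte list had 6 higher members, the antigen presentation list 0 higher, and the lower members numbered 4 for T and NK cells, 1 for erythroid cells and platelets and 1 for the proteasome. Among the named genes the block ended the calls of Alb, Onecut1, Psmb9, Psmb10 and Uck2 (adjusted p from 0.0536 to 0.146). By direction, 3 named genes that passed no test or only that with TMM reversed: with totals Hpgd went to -0.046, Rpl4 to -0.0063 and Srebf2 to -0.28, and without the 100 most abundant genes Srebf2 went to -0.19. The cause of these shifts was not tested beyond what each scaling does by construction. At these depths mRNAs such as Fgf21 and Fgf23 rest on few counts, so their size of change is uncertain.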
